A study of Mus musculus with 14 samples.

Results

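The CC chemokines of inflammatory myeloid cells were taken as the rows whose symbol is Ccl2, Ccl3, Ccl4, Ccl5, Ccl6, Ccl7, Ccl8, Ccl9, Ccl12 or Ccl24, in both deposited tables and over all 14 libraries. Each table holds 12924 gene rows, and 8 of the 10 symbols have a row in each. Ccl8 and Ccl12 were not analysed here under those symbols. The tables also hold LOC105242483 (gene ID 105242483), described there as C-C motif chemokine 8, and LOC105242482 (gene ID 105242482), described as C-C motif chemokine 12. These 2 rows are given beside the members and are not counted among them.

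The libraries came from tumors that LLC cells, a line of mouse Lewis lung carcinoma, formed over 14 days in the flanks of C57BL/6 mice. The p110g-/- hosts lack PI3K gamma, whose catalytic subunit is encoded by Pik3cg, and the wild-type (WT) hosts carry it. The labels give the deletion for the host mice, not for 1 cell type, and name no change to the LLC cells. There were 4 p110g-/- and 4 WT libraries of 1000000 sorted CD11b+Gr1- tumor cells, which the labels call tumor-associated macrophages (TAM). There were also 3 p110g-/- and 3 WT libraries of 30 mg of whole tumor. No source used here gives the age of the mice. The labels do not tie libraries to single mice, so p-values reflect only how far these samples spread, and that spread may be technical.

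CC chemokines are small secreted proteins that carry an adjacent pair of cysteines near the start of the mature chain and attract leukocytes through G protein-coupled receptors. Ccl2 and Ccl7 act on Ccr2 and draw monocytes out of the blood, Ccl3, Ccl4 and Ccl5 attract monocytes and T cells, Ccl6 and Ccl9 are rodent ligands of Ccr1 made by myeloid cells, and Ccl24 (eotaxin-2) acts on Ccr3, the receptor of eosinophils. PI3K gamma is activated by the G protein subunits released at such receptors, and tumor macrophages are both a source and a target of these ligands.

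The stretches around the cysteine pair show how far the measured members resemble each other, which bears on whether reads can be told apart between rows. Each line gives 60 coding bases, 5′ to 3′, from the GENCODE transcript on GRCm38, with the codons of the adjacent cysteines in capitals. Ccl24 has a further cysteine pair closer to its start codon, and its line shows the later pair.
Ccl2: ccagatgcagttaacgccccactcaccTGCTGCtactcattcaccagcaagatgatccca
Ccl7: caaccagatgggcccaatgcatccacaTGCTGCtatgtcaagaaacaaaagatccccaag
Ccl3: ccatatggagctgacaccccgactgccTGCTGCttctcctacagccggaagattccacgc
Ccl4: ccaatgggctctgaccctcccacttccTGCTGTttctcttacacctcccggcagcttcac
Ccl5: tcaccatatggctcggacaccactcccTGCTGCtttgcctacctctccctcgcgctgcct
Ccl6: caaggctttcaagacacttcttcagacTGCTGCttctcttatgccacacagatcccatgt
Ccl9: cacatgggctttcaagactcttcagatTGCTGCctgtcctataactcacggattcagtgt
Ccl24: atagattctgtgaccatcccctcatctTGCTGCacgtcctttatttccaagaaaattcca
Over the coding sequences of all 10 symbols, the 45 pairs were 41.3% to 68.4% identical, the highest being Ccl3 with Ccl4. The longest exact stretch shared by the transcripts of any pair was 25 bases, between Ccl6 and Ccl9, and 0 pairs shared 50 bases or more. The sequences of the 2 LOC rows were not used here, and no source used here says how reads shared between rows were counted. By that annotation the genes lie on chromosome 11 apart from Ccl24, which lies at chr5:135569937-135573049 (minus strand). Ccl2 (chr11:82035571-82037453, plus strand) and Ccl7 (chr11:82045712-82047525, plus strand) are neighbours. Ccl5 (chr11:83525778-83530518, minus strand), Ccl9 (chr11:83572919-83578636, minus strand), Ccl6 (chr11:83587882-83593087, minus strand), Ccl3 (chr11:83647844-83649355, minus strand) and Ccl4 (chr11:83662584-83664683, plus strand) form a second group. The authors' build was mm9, and these positions are on GRCm38.

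The authors deposited a whole number for each gene and library, which by its totals and spacing is a scaled and rounded read count and is termed a normalized count below. Library totals ran between 33248294 and 38153438 for TAM and between 25883561 and 27586429 for whole tumor. In units of 1000000 reads in genes, the depth estimated from the spacing of the low values was 19.7 to 40.7 for TAM and 32.1 to 44.6 for whole tumor. At that depth 3 reads are worth 1.79 to 5.81 normalized counts, a limit from counting alone, and every member lay above it in every library. Pik3cg held 1210 to 2211 normalized counts in p110g-/- TAM and 2748 to 4477 in WT TAM, and 242 to 417 in p110g-/- tumors and 487 to 616 in WT tumors, without overlap. No source used here says which part of Pik3cg is removed. The sorted cells carried macrophage markers. Csf1r, the receptor of macrophage colony-stimulating factor, averaged 56629 ± 13426 in p110g-/- TAM and 50138 ± 8719 in WT TAM, and the 13 macrophage markers summed to 8980 to 13372 counts per 1000000 (CPM) in p110g-/- TAM and 10854 to 13713 in WT TAM. The T cell gene Cd3e held 2 to 16 normalized counts in p110g-/- TAM and 4 to 10 in WT TAM. The mitochondrial share was 2.51% to 3.21% in TAM libraries numbered 1 and 2 and 7.70% to 14.4% in those numbered 3 and 4, in both genotypes. The carcinoma keratin gene Krt8 ran alike, at 46, 197, 1569 and 1194 normalized counts in p110g-/- TAM libraries 1 to 4 and 76, 499, 1573 and 1648 in WT TAM libraries 1 to 4. In bulk RNA, fewer cells of a type and less RNA per cell cannot be told apart.

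In TAM, Ccl2 and Ccl7 lay lower in p110g-/- and Ccl6 and Ccl9 lay higher in most libraries, but no member passed the test with all 8 libraries. Rose and fell are used below for an adjusted p under 0.05 from limma on log2(normalized count + 1), with the Benjamini-Hochberg adjustment over all genes tested. All 8 members were tested and 0 were called, where 0.112% of the 12475 genes tested were called. Unadjusted p was below 0.05 for 2 members, Ccl2 and Ccl7, and for 5.87% of all genes. With the library number as a block, 0 members were called, where 2.5% of all genes were, and 5 had an unadjusted p below 0.05, where 18.7% of all genes did. The median log2 fold change was 0.19 over the members and -0.01 over all genes tested, with 5 members above 0 and 3 below.

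**Figure D1:**
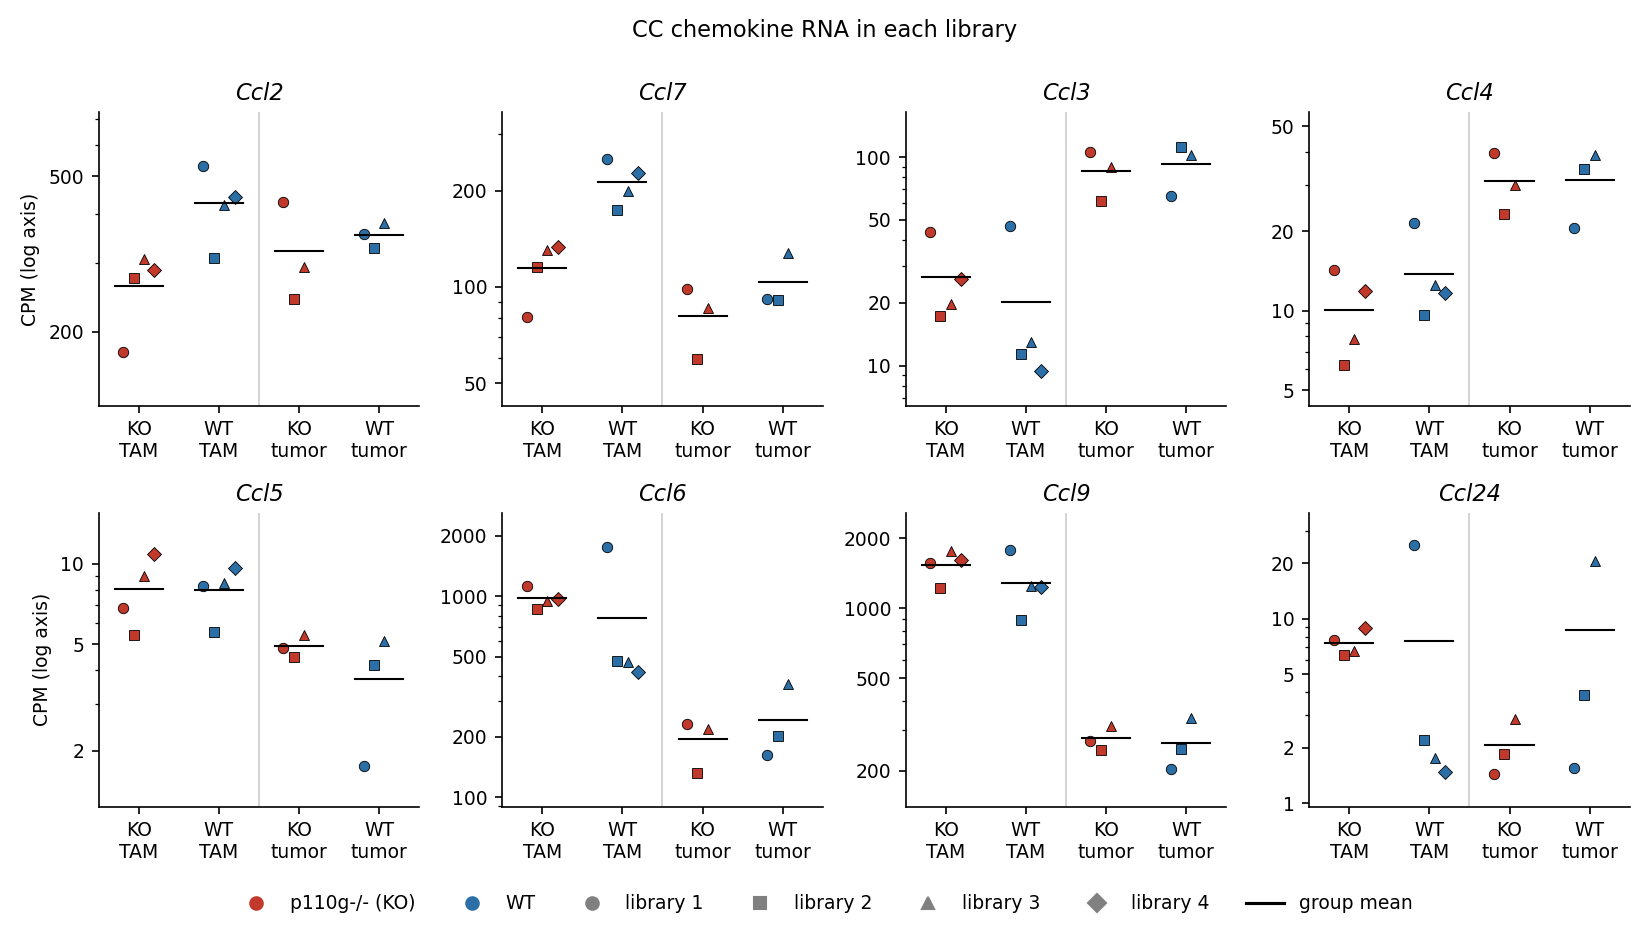
Level of each of the 8 members in every library, as CPM of the library's summed normalized counts on a log axis; p110g-/- (KO) is red, WT is blue, the marker shape is the library number and the line is the group mean. The 4 p110g-/- TAM libraries lie below all 4 WT TAM libraries for Ccl7, and WT TAM library 1 lies far above the other WT TAM libraries for Ccl3, Ccl6 and Ccl24.

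Ccl7, a ligand of Ccr2 and other receptors, held 2704, 3946, 4483 and 5096 normalized counts in p110g-/- TAM libraries 1 to 4, against 8643, 5823, 6652 and 7728 in WT TAM libraries 1 to 4. Every p110g-/- library was thus below every WT library, which 1.93% of the genes tested also showed in that direction. The log2 fold change was -0.85 (SE 0.21, 95% interval -1.32 to -0.38, adjusted p = 0.326 by limma, 0.0801 once the block was added), and the ratio of means was 0.563. Ccl2, the main ligand of Ccr2, held 5941, 9377, 10571 and 10992 in p110g-/- TAM, against 18260, 10294, 14054 and 15036 in WT TAM. The groups overlapped only through WT library 2, which lay below p110g-/- libraries 3 and 4. Its log2 fold change was -0.65 (SE 0.23, adjusted p = 0.663, and 0.199 with the block). Both genes were lower in p110g-/- in 4 of 4 same-numbered pairs, as were 15.3% of the genes tested. The largest difference was in the pair numbered 1, at log2 -1.62 for Ccl2 and -1.68 for Ccl7, while the other pairs lay between -0.13 and -0.45 for Ccl2 and between -0.56 and -0.60 for Ccl7.

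The row described as C-C motif chemokine 12, which in the mouse is a further Ccr2 ligand close to Ccl2, went the same way. LOC105242482 held 518, 1380, 755 and 1248 normalized counts in p110g-/- TAM, against 1707, 2257, 2843 and 2971 in WT TAM, with no overlap. Its log2 fold change was -1.40 (SE 0.33, adjusted p = 0.299, and 0.0171 with the block, so that it passed the threshold with the block). It was lower in 4 of 4 same-numbered pairs, by log2 -0.71 to -1.91. The row described as C-C motif chemokine 8, LOC105242483, held 429, 319, 782 and 1013 in p110g-/- TAM and 608, 385, 373 and 567 in WT TAM. Those groups overlapped (log2 fold change 0.28, SE 0.37, adjusted p = 0.999), with libraries numbered 3 and 4 higher in p110g-/- and those numbered 1 and 2 lower.

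**Figure D2:**
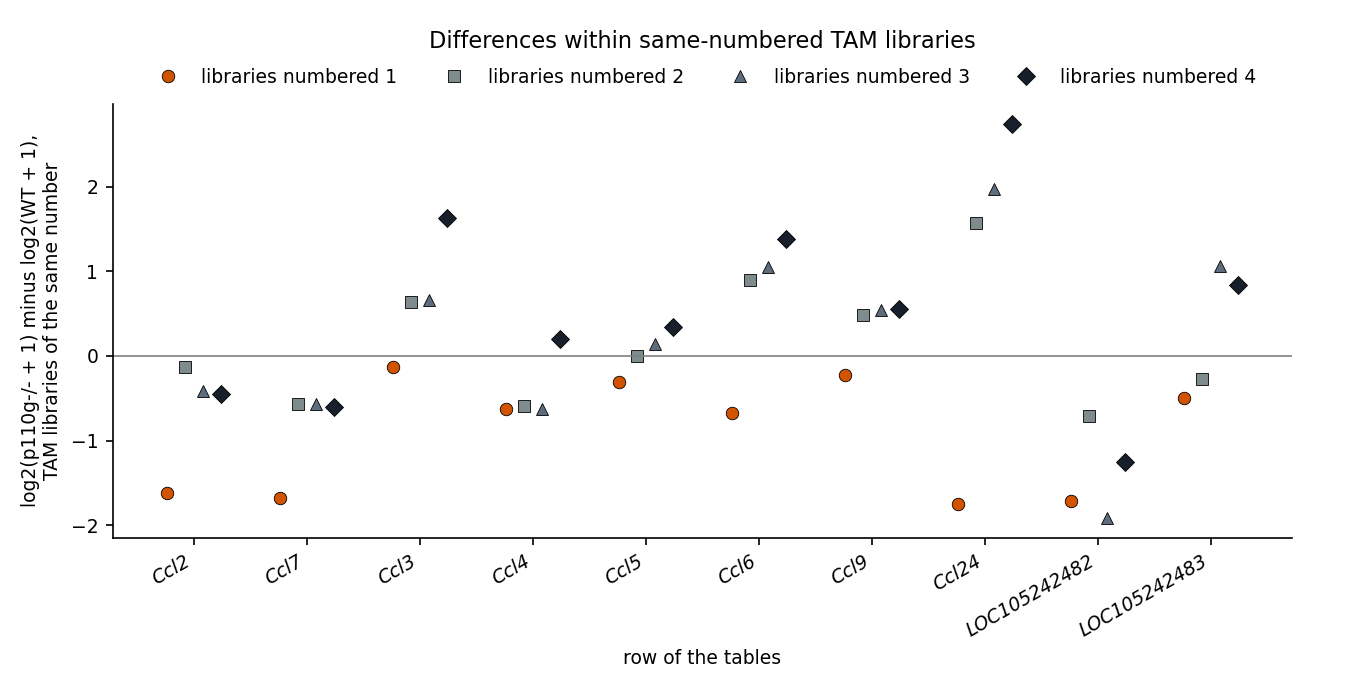
Difference between p110g-/- and WT TAM libraries of the same number, as log2(p110g-/- + 1) minus log2(WT + 1) of the normalized counts, for the 8 members and the 2 LOC rows; each point is a pair of libraries. Ccl2, Ccl7 and LOC105242482 lie below 0 in all 4 pairs, and Ccl3, Ccl6, Ccl9 and Ccl24 lie above 0 in pairs 2, 3 and 4 and below 0 in pair 1.

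Ccl6 and Ccl9, the most abundant members in TAM by normalized count, held 29499 to 37633 and 41687 to 61323 in p110g-/- TAM, against 14240 to 60237 and 29783 to 60835 in WT TAM. Ccl6 held 37633, 29499, 32525 and 36980 in p110g-/- TAM and 60237, 15888, 15671 and 14240 in WT TAM. WT library 1 alone lay above the p110g-/- libraries, and the other WT libraries lay below all of them. With all 8 libraries the log2 fold change of Ccl6 was 0.66 (SE 0.43, 95% interval -0.33 to 1.66, adjusted p = 0.999). Without WT library 1 it was 1.16 (adjusted p = 0.0173), and without both libraries numbered 1 it was 1.11 (adjusted p = 0.0116). In those fits Ccl6 thus rose, where 0.318% and 1.06% of all genes tested were called. Both fits leave out the only WT library above the p110g-/- range, so the separation follows from its removal. Leaving out any other single library, or both libraries numbered 2, 3 or 4, called 0 members higher. Ccl9 held 52198, 41687, 60618 and 61323 in p110g-/- TAM and 60835, 29783, 41602 and 41857 in WT TAM. Its log2 fold change was 0.34 (SE 0.23, adjusted p = 0.999), and 0.52 without WT library 1 (adjusted p = 0.477). In pairs 2, 3 and 4 the p110g-/- library was 1.40 to 1.47 times the WT library for Ccl9 and 1.86 to 2.60 times for Ccl6.

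Ccl24, the ligand of Ccr3, had the same shape at a far lower level. It held 255, 218, 231 and 341 normalized counts in p110g-/- TAM, against 857, 73, 58 and 50 in WT TAM. The means were 261 ± 55.3 and 260 ± 398 (SD, n = 4 each), although 3 of the 4 WT libraries lay below every p110g-/- library. The log2 fold change was 1.14 with all libraries (SE 0.84, adjusted p = 0.999). It was 2.09 without WT library 1 (adjusted p = 0.0195) and 2.10 without both libraries numbered 1 (adjusted p = 0.0172), so Ccl24 rose in those fits. As for Ccl6, they leave out the only WT library above the p110g-/- range, so the separation follows from its removal.

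Ccl3 and Ccl4, the macrophage inflammatory proteins 1 alpha and 1 beta, went different ways. Ccl3 held 1471, 588, 678 and 992 in p110g-/- TAM and 1605, 379, 430 and 321 in WT TAM (log2 fold change 0.70, SE 0.52, adjusted p = 0.999, and 1.22 with adjusted p = 0.232 without WT library 1). Ccl4 held 479, 213, 269 and 455 in p110g-/- TAM and 737, 322, 415 and 395 in WT TAM (log2 fold change -0.41, SE 0.34, adjusted p = 0.999). Ccl3 was higher in p110g-/- in 3 of 4 same-numbered pairs and Ccl4 lower in 3 of 4. Normalized counts of Ccl3 were 2.18 to 3.07 times those of Ccl4 in p110g-/- TAM, against 0.813 to 2.18 times in WT TAM, where library 1 was the highest. In whole tumors that quotient was 2.64 to 3.02 in p110g-/- and 2.62 to 3.23 in WT.

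Ccl5 (RANTES), which T cells and NK cells also make, was near equal. It held 228, 185, 310 and 415 in p110g-/- TAM and 283, 185, 282 and 327 in WT TAM, with overlapping groups. Its log2 fold change was 0.04 (SE 0.28, 95% interval -0.61 to 0.69, adjusted p = 0.999), so changes of up to 0.61 downward and 0.69 upward on the log2 scale lie within the interval.

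WT TAM library 1 decided several of these values. The 8 members made up 0.251% to 0.318% of the normalized counts in p110g-/- TAM libraries, 0.441% in WT TAM library 1 and 0.188% to 0.238% in the other WT TAM libraries. The 11 monocyte markers summed to 12324 CPM in p110g-/- library 1 and 6699 to 9589 CPM in the other p110g-/- TAM libraries, and to 13980 CPM in WT library 1 and 4747 to 8065 CPM in the other WT TAM libraries, so they were high in both libraries numbered 1. Fn1, fibronectin, alone averaged 7380 CPM in p110g-/- TAM and 6445 CPM in WT TAM and made up most of that sum. The interleukin 4 and alternative activation genes, 14 of which had a row, summed to 3396 to 4418 CPM in p110g-/- TAM, to 7251 CPM in WT TAM library 1 and to 2610 to 3475 CPM in the other WT TAM libraries. The part of these markers in the chemokine values was not tested.

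**Figure D3:**
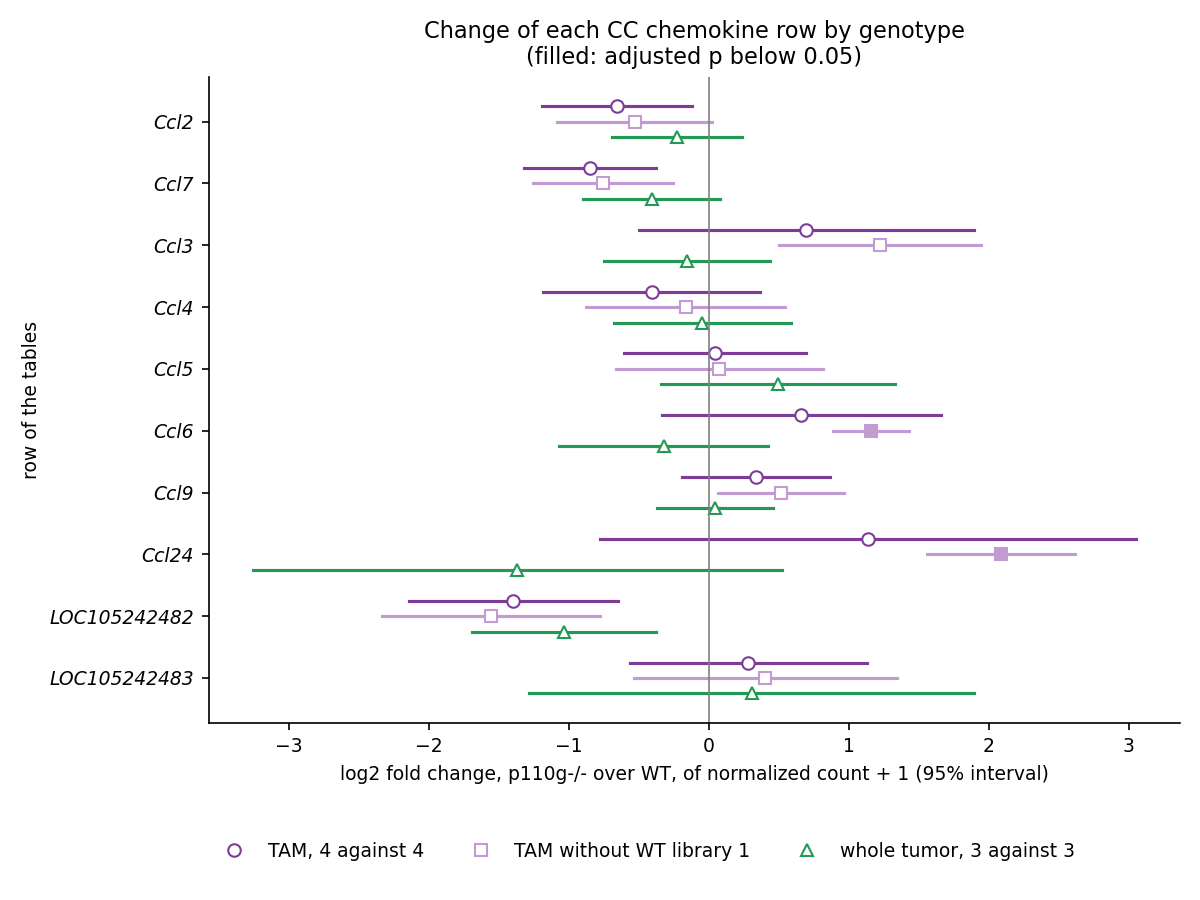
Log2 fold change of p110g-/- over WT with its 95% interval for the 8 members and the 2 LOC rows, in TAM with all libraries, in TAM without WT library 1 and in whole tumor; filled markers have an adjusted p below 0.05 by limma. Ccl6 at 1.16 and Ccl24 at 2.09 in TAM without WT library 1 are the filled markers. For both genes that fit leaves out the only WT TAM library above the p110g-/- range.

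The make-up of the chemokine RNA in TAM separated the genotypes. Ccl6 and Ccl9 together held 83.1% to 89.0% of the 8 members' normalized counts in p110g-/- TAM, against 70.2% to 79.9% in WT TAM. Ccl2 and Ccl7 together held 8.57% to 15.5% in p110g-/- TAM, against 17.8% to 28.5% in WT TAM. WT library 1 was the closest to the p110g-/- libraries in both shares, and neither share overlapped. Ccl3 and Ccl4 together held at most 1.93% in p110g-/- TAM and 1.55% in WT TAM. The shares of Ccl6 with Ccl9 and of Ccl2 with Ccl7 therefore nearly mirror each other in TAM and are not separate results. In whole tumors the shares of Ccl6 and Ccl9 were 42.3% to 51.1% in p110g-/- and 40.4% to 51.0% in WT, and those of Ccl2 and Ccl7 were 36.5% to 44.8% in p110g-/- and 36.9% to 49.7% in WT, with overlap in both. These shares were chosen after their values were seen, are not per length and were not tested.

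**Figure D4:**
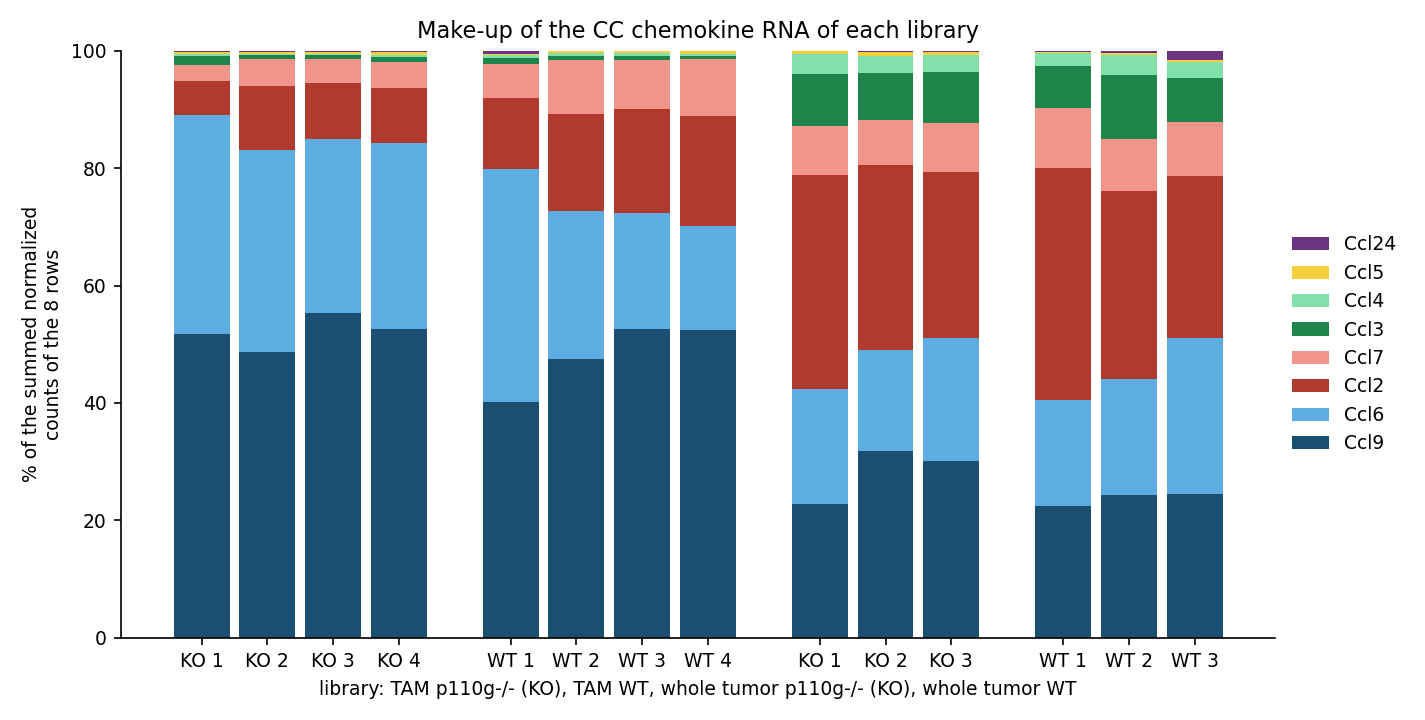
Share of each member in the summed normalized counts of the 8 members, in percent, with a stacked bar for each library of TAM p110g-/- (KO), TAM WT, whole tumor p110g-/- (KO) and whole tumor WT. Ccl6 and Ccl9 together reach 83.1% or more in p110g-/- TAM and at most 79.9% in WT TAM.

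The promoters of Ccl6 and Ccl9 are shown because these neighbouring genes carried most of the chemokine RNA in TAM and varied together. The RefSeq promoter table of GRCm38.p6 held 5 of the 10 symbols. Each line gives the 250 bases before the gene's start, 5′ to 3′ on the gene's minus strand, at chr11:83593088-83593337 for Ccl6 and chr11:83578637-83578886 for Ccl9. Capitals mark matches on either strand to kB (GGGNNTTTC), AP-1 (TGANTCA) or C/EBP (TTNNGNAA) letters.
Ccl6: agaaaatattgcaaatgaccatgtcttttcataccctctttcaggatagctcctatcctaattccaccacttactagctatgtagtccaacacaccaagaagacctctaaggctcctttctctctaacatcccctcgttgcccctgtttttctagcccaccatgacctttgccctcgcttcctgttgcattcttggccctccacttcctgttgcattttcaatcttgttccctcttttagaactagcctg
Ccl9: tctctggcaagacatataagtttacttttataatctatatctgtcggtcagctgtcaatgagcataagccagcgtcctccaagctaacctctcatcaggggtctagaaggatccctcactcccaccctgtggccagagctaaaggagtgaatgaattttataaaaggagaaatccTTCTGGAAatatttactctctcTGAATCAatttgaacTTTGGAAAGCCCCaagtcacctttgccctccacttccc
In the Ccl9 window the kB letters lay 34 to 26 bases before the start, overlapping 1 of 2 C/EBP matches, and the AP-1 letters 53 to 47 bases before it. In the Ccl6 window 0 matches to the 3 patterns were found, nor to the interferon pattern GAAANNGAA. Of 32851 promoters of the same length, 3.72% held the kB, 6.75% the AP-1, 36.8% the C/EBP and 7.13% the interferon letters. A match is a description of letters and not a site.

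In whole tumors no member passed the test between the genotypes. With limma 0 of 8 were called, where 4.35% of the 12717 genes tested were, and 0 had an unadjusted p below 0.05, where 26.2% of all genes did. The median log2 fold change was -0.19 over the members and 0.01 over all genes tested, with 2 members above 0 and 6 below. The groups overlapped for all 8 members, while 31% of all genes did not overlap.

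Ccl2 held 11708, 6263 and 7739 normalized counts in p110g-/- tumors, against 9714, 8939 and 10464 in WT tumors (log2 fold change -0.23, SE 0.20, adjusted p = 0.505). Library 1 was the highest of all 6, and without it Ccl2 fell, at -0.48 (adjusted p = 0.027), in a fit that called 15.7% of all genes. Ccl7 held 2684, 1540 and 2277 in p110g-/- tumors and 2509, 2490 and 3532 in WT tumors (log2 fold change -0.41, SE 0.21, 95% interval -0.90 to 0.08, adjusted p = 0.263). LOC105242482 held 159, 159 and 282 in p110g-/- tumors and 297, 374 and 557 in WT tumors, without overlap, as did 15.4% of all genes in that direction (log2 fold change -1.04, SE 0.28, adjusted p = 0.0751). It was thus below the WT range in both tables. LOC105242483 held 1110, 598 and 786 in p110g-/- tumors and 311, 381 and 2327 in WT tumors, where 1 WT library lay above and the others below all p110g-/- libraries.

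Ccl3 held 2878, 1586 and 2386 in p110g-/- tumors and 1765, 3043 and 2812 in WT tumors (log2 fold change -0.16, SE 0.26, adjusted p = 0.732). Ccl4 held 1080, 601 and 791 in p110g-/- tumors and 561, 942 and 1072 in WT tumors (log2 fold change -0.05, SE 0.27, adjusted p = 0.933). For both, p110g-/- library 1 was the highest and WT library 1 the lowest of its group, so the groups overlapped almost wholly. Ccl6 held 6282, 3436 and 5784 in p110g-/- tumors and 4405, 5508 and 10078 in WT tumors (log2 fold change -0.32, SE 0.32, adjusted p = 0.562). Ccl9 held 7319, 6350 and 8254 in p110g-/- tumors and 5529, 6785 and 9285 in WT tumors (log2 fold change 0.05, SE 0.18, 95% interval -0.37 to 0.46, adjusted p = 0.895).

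Ccl5 held 132, 116 and 144 normalized counts in p110g-/- tumors and 48, 114 and 142 in WT tumors (log2 fold change 0.50, SE 0.36, adjusted p = 0.420). WT library 1 was low, and the other WT libraries lay within or next to the p110g-/- range. The T cell markers summed to 24.1 to 31.7 CPM in p110g-/- tumors and 5.79 to 14.6 CPM in WT tumors. Of 10 tested, 5 were called higher in p110g-/- tumors, where 4.35% of all genes tested were called in either direction. The cytotoxic and NK cell markers, a list of 12 that itself holds Ccl5, summed to 36.9 to 65.7 CPM in p110g-/- tumors and 14.1 to 30.6 CPM in WT tumors. Of these 12, 3 were called higher, against the same 4.35% of all genes. Ccl24 held 39, 48 and 76 in p110g-/- tumors and 42, 105 and 570 in WT tumors (log2 fold change -1.37, SE 0.82, 95% interval -3.26 to 0.52, adjusted p = 0.329). WT library 3 carried most of that group's Ccl24, and WT library 1 lay within the p110g-/- range. The carcinoma keratins Krt8 and Krt18 fell in p110g-/- tumors, to 5003 ± 416 and 4817 ± 244, against 7717 ± 171 and 6561 ± 373 in WT tumors. Their part in the values above was not tested.

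The genotype effect in TAM minus that in whole tumor was fitted over all 14 libraries. With limma 0 of 8 members were called, where 0.145% of 12396 genes were, and 0 had an unadjusted p below 0.05, where 6.49% of all genes did. The difference was widest for Ccl24, at 2.50 on the log2 scale (SE 1.36, 95% interval -0.45 to 5.46, adjusted p = 0.884), with effects of 1.14 in TAM and -1.37 in whole tumor. For Ccl6 it was 0.98 (SE 0.64, adjusted p = 0.981) and for Ccl3 0.85 (SE 0.71, adjusted p = 1.0). It was -0.43 for Ccl2 and -0.44 for Ccl7. The intervals of all 8 members held 0.

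The members split by where their RNA was found. The tables were scaled separately, so TAM and whole tumor are set side by side as CPM of each library's total, with no test. How many of all genes separate TAM from whole tumor was not counted. A lack of overlap, here and in the next paragraph, is therefore not read as particular to the members. Ccl9 averaged 1537 ± 227 CPM in p110g-/- TAM and 275 ± 33.5 CPM in p110g-/- tumors, a ratio of 5.58, and the ratio was 4.90 in WT. The ratio of Ccl6 was 5.03 in p110g-/- and 3.21 in WT. In each genotype, every TAM library lay above every whole tumor library for both genes. Ccl3 ran the other way, at 26.7 ± 12.1 CPM in p110g-/- TAM and 85.7 ± 22.5 CPM in p110g-/- tumors, a ratio of 0.312, and 0.217 in WT, again without overlap. The ratio of Ccl4 was 0.326 in p110g-/- and 0.441 in WT, where a tumor library overlapped the TAM range.

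Of the Ccr2 ligands, Ccl2 averaged 262 ± 57.7 CPM in p110g-/- TAM and 321 ± 97.5 CPM in p110g-/- tumors, and 426 ± 91.9 CPM in WT TAM and 354 ± 25.7 CPM in WT tumors, with ratios of 0.814 and 1.20 and overlap in both. The ratio of Ccl7 was 1.41 in p110g-/-, with overlap, and 2.06 in WT, without. That of LOC105242482 was 3.66 in p110g-/- and 4.86 in WT, without overlap. The ratio of Ccl5 was 1.63 in p110g-/- and 2.16 in WT. For Ccl24 it was 3.61 in p110g-/-, where every TAM library lay above every tumor library, and 0.874 in WT, where TAM library 1 and tumor library 3 hold the high values.

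Per kilobase of the longest coding transcript, which is used to compare genes, Ccl6 was the highest member in p110g-/- TAM at 677 ± 75.6 CPM per kb. Ccl9 followed at 511 ± 75.7, Ccl2 at 322 ± 71.0 and Ccl7 at 144 ± 30.1, each apart from the next by more than their SDs. The order of Ccl6 and Ccl9 rests on lengths of 1440 and 3006 bases, and which transcripts the cells held was not tested. By CPM alone Ccl9 lay above Ccl6 in p110g-/- TAM, at 1537 against 975. In WT TAM, Ccl6 at 542 ± 451, Ccl2 at 524 ± 113 and Ccl9 at 428 ± 121 did not differ beyond their spread, and Ccl7 followed at 266 ± 41.8. Ccl3, Ccl4, Ccl5 and Ccl24 lay at 34.9 ± 15.8, 15.3 ± 5.61, 15.1 ± 4.52 and 5.72 ± 0.883 CPM per kb in p110g-/- TAM. In WT TAM they lay at 26.3 ± 23.2, 20.9 ± 7.94, 15.0 ± 3.26 and 5.86 ± 8.94. The ranges of mean ± SD of Ccl3, Ccl4 and Ccl5 overlapped in both genotypes. That of Ccl24 lay below them in p110g-/- TAM and overlapped them in WT TAM. In whole tumors Ccl2 was the highest, at 395 ± 120 CPM per kb in p110g-/- and 436 ± 31.6 in WT. Ccl6, Ccl7, Ccl3 and Ccl9 followed at 135, 102, 112 and 91.6 in p110g-/- tumors and 169, 130, 121 and 87.4 in WT tumors, and the ranges of mean ± SD of neighbours in that order of levels overlapped in both genotypes. Ccl24 had the lowest mean in p110g-/- tumors at 1.58 ± 0.570, while in WT tumors Ccl24 at 6.71 ± 8.06 and Ccl5 at 6.95 ± 3.28 did not differ beyond their spread.

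Some members varied together over the libraries. The following correlations are across 14 libraries, on log2(CPM + 1) centred within each table, and the libraries share genotype, table and library quality, so they are descriptions. Ccl2 and Ccl7 had Pearson's r of 0.94 and Spearman's rho of 0.93, with r of 0.88 without the 2 libraries farthest from the median of Ccl2. Ccl6 and Ccl24 had r of 0.91, rho of 0.92 and r of 0.86 without the 2 farthest, and Ccl3 and Ccl6 had r of 0.89, rho of 0.85 and r of 0.87. For Ccl6 and Ccl9 these were 0.79, 0.78 and 0.79. Between Ccl2 and Ccl6 r was 0.03, with -0.15 within TAM and 0.63 within whole tumors, and between Ccl6 and Ccl7 it was 0.01, with -0.27 within TAM and 0.90 within whole tumors. The value of 0.90 lay above those of Ccl2 with Ccl7 (0.83), Ccl6 with Ccl24 (0.81) and Ccl6 with Ccl9 (0.79) within whole tumors. Ccl6 and Ccl7, apart in TAM, thus varied together there. Other such pairs had lower r within whole tumors. It was 0.12 for Ccl2 with Ccl9, 0.21 for Ccl2 with Ccl24, 0.46 for Ccl7 with Ccl9 and 0.67 for Ccl7 with Ccl24. The neighbours Ccl3 and Ccl4 had r of 0.94 within the 6 whole tumors and 0.56 within the 8 TAM libraries.

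Other genes with the most similar pattern, out of 8472 with a mean of at least 10 CPM in both tables, differed between the members. Atf5, a transcription factor gene, came first for both Ccl2 (r = 0.86, rho = 0.82) and Ccl7 (r = 0.88, rho = 0.84). D8Ertd738e and Rps19bp1 came next for Ccl2, and Snx2 and D8Ertd738e for Ccl7. For Ccl3 they were the kinase gene Sgk1 (r = 0.96), Btg1 and Zc3h12a, which encodes an RNase of inflammatory messages. For Ccl6 they were the transcription factor gene Nfil3 (r = 0.94), Arg1, arginase 1 (r = 0.93), and Zc3h12a (r = 0.93). For Ccl24 they were Ppbp, a CXC chemokine gene (r = 0.92), Chil3, a chitinase-like protein gene of alternatively activated macrophages (r = 0.91), and Egr2 (r = 0.90). The highest r was 0.83 for Ccl4 (Samsn1), 0.75 for Ccl5 (Atp6v0b) and 0.86 for Ccl9 (Auh), and 0.94 for LOC105242482 (Comtd1). No shared function is read from these values.

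The receptors of these ligands were mostly at like levels in both genotypes. Of 18 CC receptor and decoy receptor symbols, 11 had a row. In TAM 8 were tested and 0 were called, and the block called 1 higher, where it called 2.5% of all genes. In whole tumor 9 were tested and 1 was called higher, where 4.35% of all genes were called. Ccr2 averaged 38445 ± 22350 normalized counts in p110g-/- TAM and 39853 ± 15885 in WT TAM (log2 fold change -0.15, adjusted p = 0.999), with the libraries numbered 1 and 2 above those numbered 3 and 4 in both genotypes. Ccr1 averaged 13118 ± 1514 in p110g-/- TAM and 14575 ± 4214 in WT TAM (log2 fold change -0.12, adjusted p = 0.999). Ccrl2, an atypical receptor that presents chemerin, held 1311, 833, 746 and 1180 in p110g-/- TAM and 706, 578, 401 and 366 in WT TAM. Those groups did not overlap (log2 fold change 1.00, SE 0.26, adjusted p = 0.385, and 0.044 with the block). How many of all genes lay above WT TAM without overlap was not counted.

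Ccr3, the receptor of Ccl24, rose in p110g-/- tumors, where it held 39, 62 and 55 normalized counts, against 15, 22 and 12 in WT tumors (log2 fold change 1.63, SE 0.29, adjusted p = 0.0293). That call was lost without any 1 of 5 of the 6 libraries (adjusted p = 0.0669 to 0.113) and kept without p110g-/- library 1 (adjusted p = 0.0178). Ccr3 held 71, 134, 73 and 105 in p110g-/- TAM and 19, 74, 73 and 96 in WT TAM, with overlap (log2 fold change 0.71, adjusted p = 0.999). It was the only 1 of 10 eosinophil markers with a row. In whole tumors Ccr1, Ccr2 and Ccrl2 had log2 fold changes of 0.02, -0.10 and 0.06 (adjusted p = 0.939, 0.871 and 0.874).

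The other genes of the pathway are given from lists chosen with earlier results of these data known. Of 12 other CC chemokine symbols 7 had a row. In TAM 6 were tested and 0 called, and Ccl22, a Ccr4 ligand, averaged 892 in p110g-/- and 475 in WT (log2 fold change 0.83, adjusted p = 0.885). The second by unadjusted p was Ccl17, also a Ccr4 ligand, at log2 0.96 (adjusted p = 0.999). In whole tumors 5 were tested and 0 called, while Ccl28 had a log2 fold change of -0.64 (adjusted p = 0.0501) and Ccl17 of -3.34 (adjusted p = 0.0518). Ccl17 held 3, 4 and 5 normalized counts in p110g-/- tumors and 16, 40 and 178 in WT tumors, so its difference rests on values close to the worth of a few reads. Ccl17 thus lay low in the same p110g-/- tumors as Ccl24 and was highest, like Ccl24, in WT library 3.

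Of 14 G protein and signalling partners, 0 were called in TAM or whole tumor. Pik3cg itself had the lowest unadjusted p in both (in TAM -1.02, adjusted p = 0.299, and 0.00557 with the block; in whole tumor -0.83, adjusted p = 0.0555), followed by Gnai3 in TAM (0.11, adjusted p = 0.999) and Pik3r5, a regulatory subunit of PI3K gamma, in whole tumor (0.55, adjusted p = 0.0843). Of 18 NF-kB inducible inflammatory genes 15 lay above 0 in TAM, the median being 0.52 and 0 being called. With the block 3 were called higher, where it called 2.5% of all genes. Tnfaip3 had a log2 fold change of 1.04 (adjusted p = 0.302) and Cxcl2, a neutrophil chemokine gene, of 1.91 (adjusted p = 0.417, and 0.0172 with the block). In whole tumor 1 of the 18 rose, Birc3 (log2 fold change 0.44, adjusted p = 0.0379), and 1 fell, Il1a (-1.70, adjusted p = 0.0282), with a median of 0.05. Of all genes tested there, 4.35% were called.

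Among 18 immediate-early and dissociation stress genes, 17 lay above 0 in TAM, the median being 0.44 and 0 being called. The block called 6 higher, where it called 2.5% of all genes. Fosb had a log2 fold change of 1.92 (adjusted p = 0.101, and 0.0298 with the block) and Egr1 of 0.79 (adjusted p = 0.184, and 0.0213 with the block). These genes, which handling of cells can induce, summed to 5131 to 7698 CPM in p110g-/- and 3180 to 5240 CPM in WT. Their part in the chemokine values was not tested. In whole tumor 5 of the 18 lay above 0 and 13 below, with 0 called, led by Jund (-0.60, adjusted p = 0.0865) and Nr4a1 (-0.64, adjusted p = 0.102). The type I interferon genes lay on the same side as the Ccr2 ligands in TAM. Of these, 19 of 19 tested lay below 0, with a median of -1.62, 2 called and 19 called with the block. Of all genes tested, 0.112% were called, and 2.5% with the block. Ifi44 fell by 2.81 on the log2 scale (adjusted p = 0.00773) and Bst2 by 0.94 (adjusted p = 0.0302). In whole tumor 17 of the 19 lay above 0, with 0 called and a median of 0.27, led by Oas3 (0.64, adjusted p = 0.0566) and Oas2 (0.76, adjusted p = 0.063).

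Of the interleukin 4 and alternative activation genes, 13 were tested in TAM and 14 in whole tumor, and 0 were called in either. In TAM Pdcd1lg2, which encodes PD-L2, had a log2 fold change of 1.59 (adjusted p = 0.154, and 0.0474 with the block) and Mgl2, a macrophage lectin gene, of 0.94 (adjusted p = 0.626). In whole tumors the leading members were Ccl17, given above, and Ccl22, at 65, 63 and 88 normalized counts in p110g-/- tumors and 97, 198 and 390 in WT tumors (log2 fold change -1.45, adjusted p = 0.0965). The 11 monocyte markers had a median of -0.32 in TAM with 0 called, and the block called 3 lower, where it called 2.5% of all genes. Neutrophil markers summed to 384 to 593 CPM in p110g-/- TAM and 275 to 510 CPM in WT TAM, and fibroblast and matrix markers to 23.1 to 1261 CPM in p110g-/- TAM and 78.3 to 1662 CPM in WT TAM. Both sums overlapped between the genotypes. Mmp9, which macrophages also express, made up most of the neutrophil sum, at 371 CPM in p110g-/- TAM and 322 CPM in WT TAM. S100a8 and S100a9 averaged 5.66 and 1.79 CPM in p110g-/- TAM and 3.16 and 1.61 CPM in WT TAM, against 92.3 and 163 CPM in p110g-/- whole tumor and 82.7 and 163 CPM in WT whole tumor. The sort took Gr1- cells, a gate meant to leave out neutrophils.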

How the data were processed

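Per the submitters' processing notes, the authors worked with Bowtie2 and DESeq on the mm9 build, with no versions given. The values deposited by the authors are scores: whole numbers whose library totals lie closer together than raw depths would and whose spacing, in some libraries, shows a scaling followed by rounding. No file header or label states that step. TAM and whole tumor stand in separate tables that were scaled separately. A further column of each table, whose meaning no header or label states, was not used. The members and lists were chosen with earlier results of these data known.

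Genes were tested with limma 3.58.1 (R 4.3.3, mean-dependent prior) on log2(value + 1) where at least 4 TAM or 3 whole tumor libraries reached 10. No block entered, and the effect in TAM minus that in whole tumor was fitted over all 14 libraries. Fold changes are on the log2(value + 1) scale, which understates changes of low genes. The fits were tested on simulated data with independent libraries and the same spread setting for every gene. Those data lacked the shared deviations by library number found in TAM, so they cannot show how the fits handle them. CPM were computed from column totals, and CPM per kb with the longest coding transcript of GENCODE vM21 (GRCm38.p6). Promoters are RefSeq's. Python 3.11.15, pandas 2.3.3, Biopython 1.88 and matplotlib 3.10.9 were used.

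Library numbers were taken as pairs in TAM, since same-numbered libraries deviated together from their group means, with correlations of 0.847, 0.472, 0.808 and 0.702 over 12475 genes, all above 0.1. Some differently numbered libraries did so as well. The correlation was 0.777 for p110g-/- library 3 with WT library 4, and 0.704 for p110g-/- library 4 with WT library 3. For p110g-/- library 2 with WT library 1 it was 0.137. The correlations thus do not single out a partner for libraries 3 and 4, whose pairing rests on the numbers alone. With that replicate block the number of genes called in TAM was 312, against 14 without it. The named genes are all members, the 2 LOC rows, the main receptors other than 1 that is not reported here, the 2 genes with the lowest p of each list and the 3 genes most like each member. Alternatives were a pseudocount of 8, no filter, scaling by trimmed means of M values, a single fit of all libraries, sample quality weights, a prior without trend, the replicate block, leaving out libraries, and values relative to macrophage markers.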

Additional observations from a re-analysis of the deposited data

Results flagged for a closer look

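In 3 of 22 TAM groups of 4 libraries, for the members, the LOC rows and Pik3cg, 1 library lay so far from the others that its gap to the nearest, over the whole range, passed Dixon's 95% critical value, which chance passes in about 1 in 20 groups. In each it was WT TAM library 1, the highest of its group. The 3 flagged genes, Ccl3, Ccl6 and Ccl24, varied together within TAM. Pearson's r was 0.99 for Ccl6 with Ccl24, 0.94 for Ccl3 with Ccl6 and 0.90 for Ccl3 with Ccl24. The 3 flags are therefore not independent, and their number cannot be set against that rate. Ccl3 ran from 588 to 1471 normalized counts in p110g-/- TAM, while WT TAM library 1 held 1605 and the other WT TAM libraries 321 to 430. WT TAM library 1 held 60237 of Ccl6, where the other WT TAM libraries held 14240 to 15888, and 857 of Ccl24, where the others held 50 to 73. The alternative activation genes also summed highest in it, and their part in these values was not tested.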

How the results depend on the processing

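In TAM, 0 members were called with a pseudocount of 8, without the filter, with scaling by trimmed means, in the single fit, without the trend or with the replicate block. Sample quality weights called 4 higher (Ccl3, Ccl6, Ccl9 and Ccl24, adjusted p = 0.0257, 0.00449, 0.0343 and 0.00504) and 1 lower (Ccl7, 0.0203). That fit called 654 genes higher and 345 lower out of 12475 tested. Leaving out 1 library gave 0 to 2 higher and 0 lower, and leaving out both libraries numbered 1 gave 2 higher. Of all genes, 0.318% were called without WT TAM library 1 and 1.06% without both libraries numbered 1. An alternative chosen after seeing the data, the replicate block without both libraries numbered 1, gave 3 higher (Ccl6, Ccl9 and Ccl24) and 1 lower (Ccl7). It called 298 genes higher and 313 lower out of 12546 tested. In whole tumor, 0 to 1 were lower when 1 library was left out, and 1 was lower relative to macrophage markers (Ccl24, -1.53, adjusted p = 8.97e-06, in a fit whose prior had no limit on its degrees of freedom). The fit relative to macrophage markers called 168 genes higher and 100 lower out of 12717 tested. The block otherwise changed no member's call in TAM or whole tumor, while LOC105242482 passed the threshold with it in both (adjusted p = 0.0171 and 0.0114). In whole tumor the deviations of same-numbered libraries correlated at 0.0947, 0.0763 and 0.178, so the samples share only a number there.

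Over all genes, TAM had 9 higher and 5 lower. The single fit gave 48 and 40, quality weights 654 and 345, no trend 9 and 3, the replicate block 126 and 186, leaving out 1 library 3 to 33 and 0 to 26, and leaving out both libraries numbered 1 gave 72 and 61. Leaving out both numbered 2, 3 or 4 gave 0 and 0, with 3 libraries a group. With the replicate block the same gave 298 and 313, 28 and 50, 24 and 67, and 32 and 66. Whole tumor had 286 higher and 267 lower, the single fit gave 13 and 2, quality weights 1154 and 1154, no trend 79 and 52, the replicate block 439 and 320, values relative to macrophage markers 168 and 100, and leaving out 1 library 21 to 980 and 7 to 1021. The difference between TAM and whole tumor had 5 higher and 13 lower, 53 and 274 with the replicate block, and 0 to 20 and 0 to 81 when 1 library was left out.

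Some values near 0 changed sign on the log2 scale. In whole tumor, quality weights gave -0.0266 for Ccr1, 0.0351 for Ccr2 and -0.12 for Ccrl2, and values relative to macrophage markers gave -0.12 for Ccl9, -0.14 for Ccr1 and -0.11 for Ccrl2. In TAM, Ccl5 was -0.0581 without both libraries numbered 4, with or without the block. Leaving out 1 library gave, in TAM, -0.16 to 0.23 for Ccl5, -0.20 to 0.0661 for Ccr1 and -0.49 to 0.10 for Ccr2. In whole tumor it gave -0.40 to 0.0842 for Ccl3, -0.33 to 0.16 for Ccl4, -0.58 to 0.0210 for Ccl6, -0.13 to 0.25 for Ccl9, -0.23 to 1.22 for LOC105242483, -0.11 to 0.14 for Ccr1, -0.37 to 0.19 for Ccr2 and -0.15 to 0.22 for Ccrl2. The difference between TAM and whole tumor ran from -0.76 to 0.00961 for Ccl5 and -0.94 to 0.51 for LOC105242483. By deposited normalized counts in place of CPM, the p110g-/- ratios of TAM over whole tumor were 2.18 for Ccl5, 7.38 for Ccl9 and 4.81 for Ccl24. Library totals, by which CPM are divided, were 33479847 to 38153438 in p110g-/- TAM and 25883561 to 27219340 in p110g-/- tumors. These ratios are thus higher by construction. The cause of the changes of sign was not tested.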
